A study of Mus musculus with 12 samples.

Results

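Bidirectional protein-coding promoters are places where a minus-strand gene and a plus-strand gene start back to back and are read away from each other. In the GENCODE M21 annotation of the mouse genome (mm10), 734 such pairs lay on chr1 to chr19 with their 5′ ends at most 1000 bp apart and without overlap of the gene bodies. Each pair was taken as a window that ran from one 5′ end to the other with 500 bp added on either side. The 734 windows held 1448 distinct genes, 20 of which stood in more than 1 pair, and they were set against 19359 windows of the same flank around all other protein-coding 5′ ends, so that 20093 windows were examined in all. The distance between the 5′ ends had a median of 128 bp (lower quartile 66.3 bp, upper quartile 240.0 bp, range 1 to 987 bp). Pairs are named with the minus-strand gene first.

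YY1 is a DNA-binding protein of the zinc finger class that recognises a core of ATGG letters, occupies many promoters and takes part in the looping of promoters to enhancers. Many bidirectional promoters lie in CpG islands, lack a TATA box and serve housekeeping genes of DNA repair, translation and mitochondria. In some genes with short 5′ leaders the YY1 letters overlap the start codon, so that the same bases are read at the level of DNA and of RNA.

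YY1 binding was measured by ChIP-seq in lineage-negative (Lin-) bone marrow cells, the fraction that holds blood stem and progenitor cells, from female mice 3 months old of the strain 129Sv4/Jae x B6. There were 2 wild-type (WT) libraries and 2 libraries from Xist knockout (XistΔ/Δ, here KO) mice, in which a floxed Xist was removed by iCre under the Vav1 promoter, active in blood cells. Neither the presence of iCre in WT mice nor the use of separate animals for the replicates is given in the labels, so the spread between libraries may be in part technical. The remaining 8 samples of the series, which profiled histone marks, were not analysed here.

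The peak lists differed in depth with the replicate number. The replicate 1 libraries had 24876456 (WT) and 23141326 (KO) tags with 9553 and 10075 peaks, and the replicate 2 libraries had 50004037 and 59537344 tags with 15933 and 18113 peaks. All peaks carried the same score, so peaks were ranked by their width, given as a percentile among all chr1 to chr19 peaks of its library. The place of a peak in the deposited list was used only in alternatives, to cut the lists or, where stated, as the rank. The 5′ end of Xist held a peak in both WT libraries (3083 and 3222 bp wide) and in neither KO library. Of 10 blood stem and progenitor genes, Ptprc, Myb, Runx1, Spi1 and Tal1 had a peak at their 5′ end in all 4 libraries, Vav1 in 3, Kit in 2, Cd34 and Gata2 in 1 and Lmo2 in none. None of 6 genes of other tissues had a peak in any library.

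The sequences that the YY1 results turn on are short. The letters AANATGGC (shorter YY1 letters) and the same letters followed by GGC (longer YY1 letters) were searched on both strands within 500 bases on either side of the middle of each window, and every longer match is also a shorter one. The stretches below are 30 bases of the reference genome (mm10) that hold the longer letters, in capitals, in pairs that belonged to a gene group described further on or to the listed pairs. Each is given on the strand that carries the letters, and only letters in the direction of the named gene are shown. Antisense sites in such groups are not printed. They lie in Sf3a1 of Ccdc157/Sf3a1, Zfp91 of Zfp91/Lpxn and Fubp1 of Dnajb4/Fubp1.
Son of Gart/Son, chr16:91647654-91647683, plus strand, UTR: tcaaccactAACATGGCGGCcgagttcgtg
Lrrc41 of Uqcrh/Lrrc41, chr4:116075351-116075380, plus strand, UTR: gacctcttcAAGATGGCGGCccgcgggtgt
Lrrc41 of Uqcrh/Lrrc41, chr4:116075397-116075426, plus strand, start codon: cacctccccAAGATGGCGGCgcccgaggcc
Mrps27 of Ptcd2/Mrps27, chr13:99344791-99344820, plus strand, start codon: gtgcgctccAAGATGGCGGCtcccatggtg
Polr1c of Polr1c/Yipf3, chr17:46247946-46247975, minus strand, start codon: gagtggcggAAGATGGCGGCggctcaggcg
Ptcd3 of Ptcd3/Polr1a, chr6:71908723-71908752, minus strand, start codon: aagagtccaAAGATGGCGGCggcggcggtt
Nhlrc2 of Dclre1a/Nhlrc2, chr19:56548671-56548700, plus strand, start codon: agctcgcgcAACATGGCGGCtcccggagcg
Mrpl37 of Mrpl37/Cyb5rl, chr4:107066820-107066849, minus strand, UTR: gcacgggcaAAGATGGCGGCgtccaggtag
Rps27 of Rps27/Rab13, chr3:90213416-90213445, minus strand, UTR: agaggagatAAGATGGCGGCccagctacgc
Col4a3bp of Polk/Col4a3bp, chr13:96542749-96542778, plus strand, UTR: cccggcaggAAGATGGCGGCtgtagcggag
In the stretches called start codon, the ATG inside the capitals is the annotated start of translation of the named gene. All of these pairs held a YY1 peak in every library.

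For contrast, the bases between the 5′ ends are shown for pairs with short gaps at the extremes of the YY1 signal, on the plus strand. None of these gaps contains the YY1 letters, but Mrps18b/Ppp1r10 and Ddx5/Cep95 hold at least the shorter letters elsewhere in the bases searched.
Mrps18b/Ppp1r10, chr17:35916390-35916433, peak in 4 libraries: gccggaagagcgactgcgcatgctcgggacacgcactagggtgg
Ddx5/Cep95, chr11:106789186-106789251, peak in 4 libraries: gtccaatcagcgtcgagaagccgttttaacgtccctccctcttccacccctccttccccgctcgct
Tsc2/Nthl1, chr17:24632631-24632679, peak in the 2 KO libraries: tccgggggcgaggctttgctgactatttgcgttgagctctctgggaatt
Rnf151/Rps2, chr17:24718064-24718115, no peak: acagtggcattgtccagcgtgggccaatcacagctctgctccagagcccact
Best1/Rab3il1, chr19:10001634-10001668, no peak: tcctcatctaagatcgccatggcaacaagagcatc
The gaps of Mrps18b/Ppp1r10 and Ddx5/Cep95 hold 5 and 6 CpG dinucleotides, the gap of Tsc2/Nthl1 holds 3, and those of Rnf151/Rps2 and Best1/Rab3il1 hold 1 each. These counts are examples from gaps of different length. The 130 bases between the 5′ ends of Ndufa5/Asb15, a pair with a peak in 4 libraries, also hold only 1.

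Most bidirectional windows held YY1. In WT replicate 1 a peak overlapped 581 of the 734 windows, or 79.2% (95% Wilson interval 76.1 to 81.9%), and in WT replicate 2 it was 659, or 89.8% (87.4 to 91.8%). In KO replicate 1 it was 599, or 81.6% (78.6 to 84.2%), and in KO replicate 2 it was 664, or 90.5% (88.1 to 92.4%). The deeper replicate 2 libraries were higher in both genotypes. All libraries had a peak at 548 windows (74.7%), between 1 and 3 libraries at 120 (16.3%), and none at 66 (8.99%). At the other protein-coding 5′ ends a peak stood in all 4 libraries at 29.5%, and no library had one at 57.6%. The Wilson intervals cover counting error only.

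The other 5′ ends held a peak in 33.1% (WT replicate 1), 39.9% (WT replicate 2), 32.4% (KO replicate 1) and 41.1% (KO replicate 2) of cases. The share at bidirectional windows was higher by 48.6 percentage points ± 1.72 (SD, n = 4 libraries of both genotypes), in every library, with a two-sided exact sign-flip permutation p of 0.13, the smallest that 4 libraries allow. Windows are not replicates, so no test was made over them. Because bidirectional windows were longer (median 1129 bp) than the others, which had 500 bp on either side of a single 5′ end, the comparison was repeated with 500 bp on either side of the midpoint, and the difference was 48.5 points.

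Divergent noncoding genes went with an intermediate share. A gene counted as noncoding where its annotated type was anything other than protein-coding. Among the other 5′ ends, 860 had a noncoding gene in the same divergent arrangement within 1 kb, and 56.6%, 65.2%, 55.6% and 66.4% of them held a peak in WT replicates 1 and 2 and KO replicates 1 and 2. These values lay between those of bidirectional windows and those of the 16315 5′ ends with no other 5′ end within 1 kb, of which 28.2%, 34.9%, 27.7% and 36.1% had one in the same order. The bidirectional windows exceeded the divergent noncoding class by 24.3 points ± 1.44 (SD, n = 4; exact sign-flip permutation p = 0.13, two-sided).

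**Figure D1:**
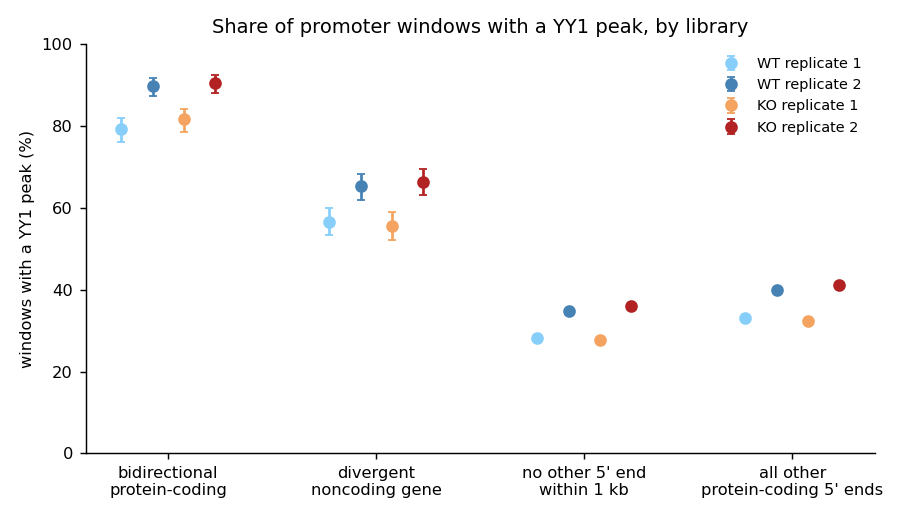
Share of promoter windows with a YY1 peak (y axis, %) in 4 classes of 5′ end (x axis); each point is 1 library and bars are 95% Wilson intervals, narrower than the point for the largest classes. The bidirectional class lies between 79.2 and 90.5%, above every library of the other classes, and in each class the replicate 2 libraries lie above the replicate 1 libraries.

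CpG content moved with this difference. A window was called CpG-rich where the observed over expected CpG ratio within 500 bases on either side of its middle was at least 0.6 with at least 50% GC. That held for 84.1% of bidirectional windows, 73.7% of the divergent noncoding class and 42.9% of all other 5′ ends. Among CpG-rich windows alone, bidirectional windows had peaks in 85.6%, 95.3%, 87.4% and 95.5% of cases (WT replicates 1 and 2, KO replicates 1 and 2), and other 5′ ends in 65.1%, 73.5%, 63.3% and 74.5%. The difference was then 21.8 points, less than the 48.6 points without this restriction, and the difference from the divergent noncoding class was 15.6 points. This restriction was chosen after the data were examined.

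In windows outside the CpG-rich class the shares were 45.3%, 60.7%, 51.3% and 64.1% for 117 bidirectional windows, against 9.03%, 14.7%, 9.19% and 16.0% for 11050 other 5′ ends. With the ratio under 0.4 few windows of either kind were occupied. Only 30 bidirectional windows fell there, and between 2 and 5 of them had a peak in a given library. At a ratio of 0.9 and over, 119 of 126 bidirectional windows (94.4%) and 76.4% of other 5′ ends had a peak in all 4 libraries.

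**Figure D2:**
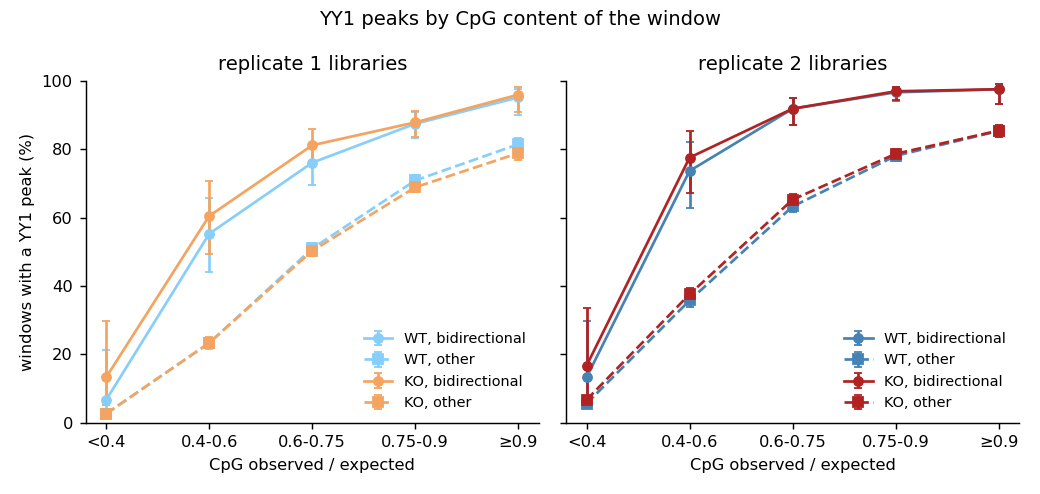
Share of windows with a YY1 peak (y axis, %) by observed over expected CpG ratio (x axis, 5 classes), with replicate 1 libraries on the left and replicate 2 libraries on the right. Solid lines are bidirectional windows, dashed lines other 5′ ends and bars 95% Wilson intervals; both rise with CpG content and the solid lines lie above the dashed lines in each class, by the smallest margin under 0.4, where only 30 bidirectional windows fell and the intervals of a library meet or nearly meet.

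Peaks were also more frequent at windows with the YY1 letters. The longer letters were in 49 bidirectional windows (6.68%) and in 418 other 5′ ends (2.16%), and the shorter letters in 24.1% and 15.9%. All 49 bidirectional windows with the longer letters had a peak in each of the 4 libraries (100%, Wilson interval 92.7 to 100%). The 685 windows without them had peaks in 77.7%, 89.1%, 80.3% and 89.8% (WT replicates 1 and 2, KO replicates 1 and 2). For the shorter letters the shares with against without were 92.7 against 74.9% in WT replicate 1, 93.8 against 88.5% in WT replicate 2, 91.5 against 78.5% in KO replicate 1 and 93.8 against 89.4% in KO replicate 2. This difference averaged 10.1 points ± 6.43 (SD, n = 4; exact sign-flip permutation p = 0.13, two-sided). It was larger in the shallower replicate 1 libraries of both genotypes. With the peak midpoint required inside the window it was 4.94 points and not of the same sign in every library (exact sign-flip permutation p = 0.500). With the first 50% of every list it was 28.2 points, and among CpG-rich windows alone it was 6.93 points. At the other 5′ ends with the longer letters the share was between 96.2 and 96.7%, and this difference from the bidirectional windows was not tested.

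Other promoter letters were counted in the same bases as a description. The ETS letters ACCGGAAG were in 11.0% of bidirectional windows and 4.48% of other 5′ ends. The NRF1 letters (GCGCAT followed by GCGC) were in 4.22% and 1.52%. TATAAA was in 14.3% and 33.5%. Peaks were in 85.2%, 98.8%, 88.9% and 97.5% of bidirectional windows with the ETS letters (WT replicates 1 and 2, KO replicates 1 and 2). Without them the shares were 78.4%, 88.7%, 80.7% and 89.6%. A higher share in every library was thus not particular to the YY1 letters. With the NRF1 letters the shares were 83.9%, 100%, 80.6% and 96.8%, against 78.9%, 89.3%, 81.7% and 90.2% without. With TATAAA they were 73.3%, 85.7%, 79.0% and 87.6%, against 80.1%, 90.5%, 82.0% and 90.9% without. These shares were not tested. A match does not show that a factor bound there.

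Peaks were also wider where the YY1 letters occurred. At windows with the longer letters the widest peak had a median width percentile of 89.9, 90.5, 89.5 and 92.6 in WT replicates 1 and 2 and KO replicates 1 and 2. Of the 128 windows with the shorter letters only, the 115, 117, 113 and 117 with a peak had 83.2, 85.8, 80.2 and 85.9. Of the 557 windows with neither, the 417, 493, 437 and 498 with a peak had 55.1, 69.0, 56.7 and 72.8. The order was the same in each library. In base pairs, the median with the longer letters was 1811, 2138, 1491 and 2180 bp, against 1052, 1422, 918 and 1363 bp without them. These medians are descriptions over windows with a peak.

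**Figure D3:**
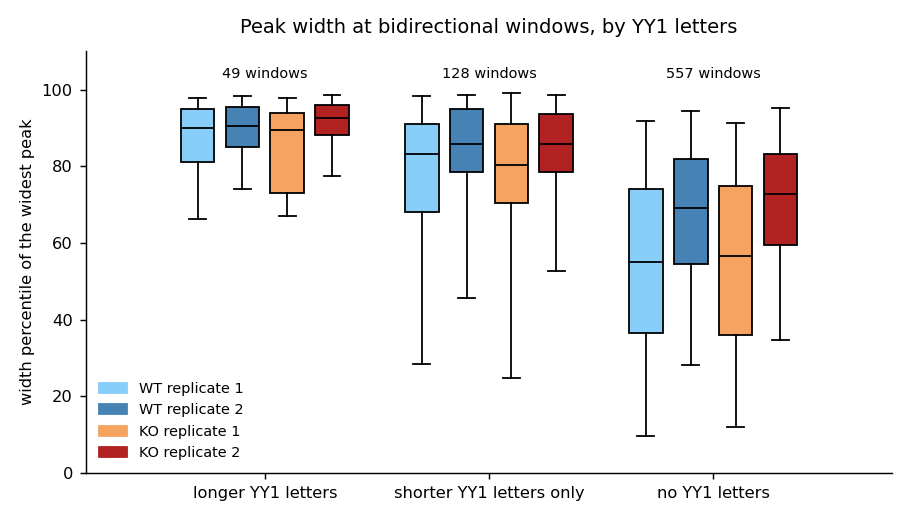
Width percentile of the widest YY1 peak (y axis) at bidirectional windows with a peak, by YY1 letters in the window (x axis) and library (colour). Boxes span the quartiles with the median as a line and whiskers reach the 5th and 95th percentiles; medians are 89.5 to 92.6 with the longer letters, 80.2 to 85.9 with the shorter letters only and 55.1 to 72.8 with neither.

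The longer letters lay mostly inside the genes. A site shared by overlapping windows was counted once, with its nearest 5′ end, so that the 49 windows held 49 distinct sites. Of these, 48 lay downstream of a 5′ end and 1 lay between the 5′ ends, while the gaps made up 19.1% of the bases searched. Of 203 distinct sites with the shorter letters, the gaps held 18 sense and 15 antisense sites (8.87 and 7.39%), a share near that of the bases. Of the longer sites downstream, 41 were read in the direction of their gene and 7 in the opposite direction. The sense sites had a median distance of 52.0 bp from the 5′ end. The annotation placed 26 of the 49 in a coding exon, 20 in a UTR, 1 in an intron, 1 in a noncoding exon and 1 between genes. In 26 sites the ATG was an annotated start codon. At other 5′ ends 260 of 405 distinct sites were downstream and sense and 157 had their ATG at a start codon.

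**Figure D4:**
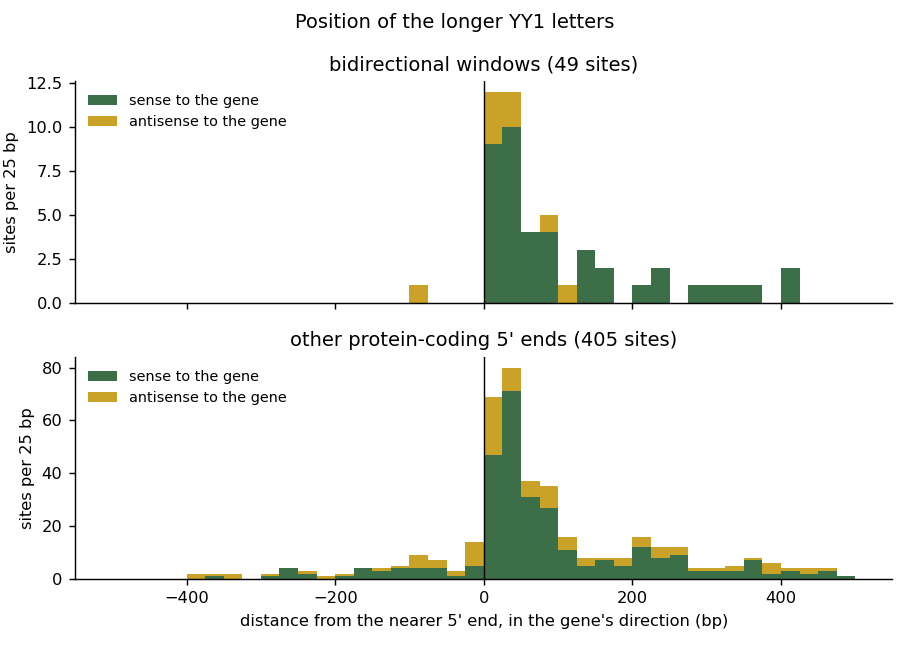
Number of sites with the longer YY1 letters per 25 bp (y axis) by distance from the nearer annotated 5′ end in the direction of transcription (x axis, bp), for bidirectional windows (upper panel, 49 sites) and other 5′ ends (lower panel, 405 sites). Colours mark letters in the sense or antisense direction of the gene; in bidirectional windows 41 sites are sense and downstream and 1 lies upstream.

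The peaks leaned toward the gene that carried the letters. In 45 windows with a single longer site, overlapping windows with the same site counted once, the midpoint of the widest peak lay on the site's side of the window's middle in 42 windows in WT replicate 1, 42 in WT replicate 2, 41 in KO replicate 1 and 41 in KO replicate 2. The median distance from peak midpoint to site was 175, 190, 107 and 189 bp in that order. From the peak midpoint to the middle of the window it was 322, 369, 278 and 311 bp, so the peaks were centred nearer to the letters than to the shared gap. With the shorter letters only, the midpoint was on the site's side in 76.8%, 73.3%, 76.3% and 73.3% of windows with a single site. With the ETS letters it was in 61.3%, 50.7%, 56.2% and 51.4%, and with the NRF1 letters in 52.2%, 50.0%, 60.9% and 48.1%. These shares were not tested.

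Over all bidirectional windows with a peak, the peak usually spanned the whole divergent arrangement. It covered both 5′ ends in 86.4% of windows in WT replicate 1, 93.9% in WT replicate 2, 88.6% in KO replicate 1 and 95.6% in KO replicate 2. It touched neither 5′ end in 26, 10, 15 and 6 windows. A second peak in the same window was rare, with 15, 10, 12 and 4 windows. Peaks in bidirectional windows made up 6.21%, 4.17%, 6.05% and 3.67% of all peaks on chr1 to chr19.

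Bidirectional windows had wider peaks than other 5′ ends. Their median width percentile was 65.0 against 59.0 in WT replicate 1, 75.2 against 68.7 in WT replicate 2, 66.7 against 60.2 in KO replicate 1 and 77.2 against 71.2 in KO replicate 2. The difference was 6.23 percentile points ± 0.294 (SD, n = 4; exact sign-flip permutation p = 0.13, two-sided). Only windows with a peak enter this comparison.

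The gap length went with a small difference in occupancy. Peaks were present in 81.4%, 92.5%, 80.4% and 92.2% of 306 windows with a gap of 100 bp or less (WT replicates 1 and 2, KO replicates 1 and 2). Of 132 windows with a gap over 300 bp, 75.8%, 84.1%, 78.8% and 85.6% had one. The difference between gaps of 100 bp or less and gaps over 300 bp averaged 5.54 points ± 2.87 (SD, n = 4; exact sign-flip permutation p = 0.13, two-sided) and was 1.60 points in KO replicate 1. It was 2.21 points with the first 50% of every list and 3.97 points with the peak midpoint inside the window, and in neither case of the same sign in every library (exact sign-flip permutation p = 0.250 for each). Peak width went the other way. Where a peak was present, the median width percentile was 76.0, 81.3, 73.4 and 83.5 at gaps over 300 bp. At gaps of 100 bp or less it was 62.9, 73.0, 64.4 and 74.1. At the limit of the rule, 8 of 15 pairs 801 to 1000 bp apart and 10 of 19 pairs from over 1000 to 1200 bp apart had a peak in all 4 libraries.

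Gene groups were counted as pairs in which either gene belonged to the group, beside the 74.7% of all bidirectional windows with a peak in all 4 libraries. In translation and mitochondria, all 18 pairs with a mitochondrial ribosomal protein gene had a peak in all 4 libraries, as did all 5 pairs with an aminoacyl-tRNA synthetase. At other 5′ ends of the same groups the shares were 80.0% of 60 and 69.7% of 33. The mitochondrial ribosomal pairs ranged from Lrrc46/Mrpl10, with a mean width percentile over the 4 libraries of 44.1, to Mrps18b/Ppp1r10 with 99.8. Of 19 pairs with a respiratory chain gene 17 had a peak in all 4 libraries, and the exceptions, Stxbp4/Cox11 and Ndufa8/Morn5, had one in 3. Of 72 other 5′ ends of respiratory chain genes 69.4% had a peak in all 4 libraries.

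The cytosolic ribosomal pairs were less uniform, with 6 of 8 in all 4 libraries, beside 88.7% of 71 other 5′ ends of these genes. Polr3a/Rps24 had a peak in 2 libraries and Rnf151/Rps2 in none, while Zwilch/Rpl4 had a mean width percentile of 92.0. Among genes of RNA synthesis and processing, 13 of 14 pairs with an RNA polymerase or Mediator subunit and all 11 pairs with a splicing gene had a peak in all 4 libraries. All 5 proteasome pairs and all 10 DNA replication pairs did so too, and the replication pairs had a median mean width percentile of 61.7, beside 72.4 for all bidirectional windows. At other 5′ ends a peak stood in all 4 libraries for 69.0% of 42 polymerase and Mediator genes, 76.6% of 47 splicing genes, 67.6% of 34 proteasome genes and 63.9% of 36 replication genes.

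DNA repair genes formed the largest of these groups, with 32 pairs. Peaks stood in all 4 libraries at 22 of them (68.8%) and in 1 to 3 libraries at the other 10, and every pair had at least 1 peak. Other 5′ ends of DNA repair genes had one in all 4 libraries in 69.0% of 71 cases. The median of the mean width percentile, over those with a peak in all 4 libraries, was 63.9. Rad54l/Pomgnt1 and Pinlyp/Xrcc1, with a recombination motor and a scaffold of single-strand break repair, had a peak in KO replicate 2 only, 647 and 501 bp wide. Hscb/Chek2, Mbd4/Ift122 and Palb2/Dctn5 had a peak in all libraries but WT replicate 1. Lig4/Abhd13, with the ligase of end joining, and Pms1/Ormdl1 lacked one in KO replicate 1 only. Most of these absences were in the shallower libraries.

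Clustered histone pairs split. Of 14 pairs, 8 (57.1%) had a peak in all 4 libraries, 3 in some and 3 in none, beside a peak in all 4 at 67.5% of 40 other 5′ ends of such genes, and those with a peak in all 4 were wide, with a median mean width percentile of 91.0. Hist1h2bl/Hist1h2ai had peaks of 3360, 3779, 2089 and 4101 bp in WT replicates 1 and 2 and KO replicates 1 and 2. Hist1h2bq/Hist1h2ao, Hist1h2ap/Hist1h2br and Hist1h2ba/Hist1h2aa had none. Histone genes exist in near-identical copies, and reads of low mapping quality had been removed, so these counts are uncertain. Bola1/Hist2h2ab and Hist2h2ac/Hist2h2be lie under the same peak.

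Of 12 chaperone pairs 10 had a peak in all 4 libraries, Sirt1/Dnajc12 had one in both KO libraries and Hspa1a/Hspa1l, with inducible and testis members of the Hsp70 family, had none. Of 18 zinc finger pairs 13 had a peak in all 4 libraries, and Grik5/Zfp574 and Zfp558/Mbd3l1 had none. At other 5′ ends 54.3% of 70 chaperone genes and 38.2% of 395 zinc finger genes had a peak in all 4 libraries. These shares by gene group were not tested. The collagen list held Col4a4/Col4a3, with no peak, and Polk/Col4a3bp, which matched by its symbol but carries a ceramide transfer protein and a translesion polymerase and had a peak in all 4 libraries. None of 40 other collagen 5′ ends had a peak in all 4 libraries.

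Of 19 pairs listed by name as well known, 10 met the rule. In 8 the gene bodies overlap in this annotation, among them Hspd1/Hspe1, Ppat/Paics, Surf1/Surf2, Col4a1/Col4a2, Hars/Hars2, Mre11a/Ankrd49 and Tk1/Afmid, and for 1 pair a symbol was not in the annotation. YY1 peaks stood in all 4 libraries at 8 of the 10. Brca1/Nbr1, which joins a recombination gene to an autophagy receptor 194 bp away, had peaks of 1787, 2222, 1620 and 2287 bp in WT replicates 1 and 2 and KO replicates 1 and 2. These widths put it among the wider peaks of each list, with a mean width percentile of 91.7.

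Gart/Son, with a purine synthesis enzyme and a splicing cofactor, was wider still at 2492, 3475, 2574 and 3698 bp. Mcm4/Prkdc, with a helicase subunit and the DNA-dependent protein kinase, had 815, 1468, 1098 and 1837 bp. Toe1/Mutyh, with a deadenylase and a DNA glycosylase, had 792, 907, 839 and 1071 bp. These pairs were present in every library but differed in rank, with mean width percentiles of 98.4, 70.9 and 52.7. Polh/Xpo5 had 1070, 1275, 501 and 1374 bp, and 501 bp is the narrowest width in each list. Pdcd10/Serpini1 had 798, 1687, 626 and 1639 bp. Aimp2/Pms2 had no peak in WT replicate 1 and widths of 1164, 501 and 1226 bp in the others.

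The 5 pairs with the highest mean width percentile were Mrps18b/Ppp1r10 (99.8), Hnrnpa2b1/Cbx3 (99.6), Ddx5/Cep95 (99.0), Uqcrh/Lrrc41 (98.9) and Zbtb25/Zbtb1 (98.8). Mrps18b/Ppp1r10, with a mitochondrial ribosomal protein and a regulator of protein phosphatase 1, had peaks of 4658, 4775, 3938 and 4849 bp. Hnrnpa2b1/Cbx3, with an RNA-binding protein and a heterochromatin protein, had 3790, 4577, 3196 and 4587 bp. Uqcrh/Lrrc41, with a subunit of respiratory complex III, had 2731, 4006, 2915 and 3442 bp and carried the longer YY1 letters at 2 places in Lrrc41. All but Zbtb25/Zbtb1 of these 5 held at least the shorter letters.

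At the other end, 66 windows had no peak in any library. They were poorer in CpG, with 24 of 66 CpG-rich (36.4%) against 91.1% of the windows with a peak in all 4 libraries. None held the longer YY1 letters and 11 held the shorter. The nearest peak of any library was a median of 18562 bp away from the window, and over 10000 bp away for 43 of them. The 5 with the shortest gaps were Wdr54/1700003E16Rik (gap 7 bp), Nudt22/Trpt1 (14 bp), Plcd3/Acbd4 (24 bp), Best1/Rab3il1 (36 bp) and Rnf151/Rps2 (53 bp). Among them Plcd3/Acbd4 had peaks 334, 463 and 288 bp outside its window in WT replicate 2, KO replicate 1 and KO replicate 2, and the nearest peak of Best1/Rab3il1 was 15763 bp away.

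Both imprinted pairs among these windows were chosen for mention after their values were seen. Peg3/Usp29, expressed from the paternal copy, had no peak within its window but peaks 295, 276 and 215 bp beyond it in WT replicate 2, KO replicate 1 and KO replicate 2, and 1496 bp away in WT replicate 1. Sgce/Peg10 had a peak 490 bp outside in WT replicate 2 and 549 bp outside in KO replicate 2, while the nearest in the replicate 1 libraries were 144100 bp away in WT and 144067 bp away in KO. Within 1000 bp of the window, 4 of the 66 had a peak.

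The WT and KO libraries were compared for the effect of losing Xist. The share of bidirectional windows with a peak averaged 84.5% in the WT libraries (SD 7.51, n = 2) and 86.0% in the KO libraries (SD 6.26, n = 2), a difference of 1.57 points that was smaller than the spread between replicates (exact permutation p = 0.667, two-sided, where 2 against 2 libraries cannot go below 0.33). Within replicate number 1 the KO library was higher by 2.45 points and within number 2 by 0.681 points. The direction turned without WT replicate 1, to -3.75 points, and without KO replicate 2, to -2.86 points. Relative to the other 5′ ends the KO minus WT difference was 1.30 points (exact permutation p = 1.00, two-sided). Its sign differed between replicate numbers, with 3.11 points within number 1 and -0.502 points within number 2.

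No bidirectional window had a peak in both WT libraries and in neither KO library, which allows a share of up to 0.409% of 734 by counting error over windows alone, and 0.0697% of all 20093 protein-coding windows met that rule. In the other direction 2 windows (0.272%) had a peak in both KO libraries and neither WT library, beside 0.204% of all protein-coding windows, a share near the background. Tsc2/Nthl1, with an inhibitor of mTORC1 and a base excision glycosylase, had no peak in WT, and widths of 501 bp in KO replicate 1 and 905 bp in KO replicate 2, with the nearest WT peak 35972 bp from the window. Sirt1/Dnajc12, with a protein deacetylase, had 501 and 767 bp in KO, and the nearest WT peak was 3192 bp away. Both had the lowest width of the list in KO replicate 1, and in KO replicate 2 the median width over all peaks was 892 bp. Without WT replicate 2 the count was 50, without KO replicate 1 it was 9, and with the lists cut to the same number of peaks it was 6. The WT-specific count was 33 without KO replicate 2, 3 without WT replicate 1 and 4 with lists of the same length.

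Among the 548 windows with a peak in all 4 libraries, the width percentile was higher in KO within both replicate numbers at 178 (32.5%) and lower at 109 (19.9%). The percentile is relative to the peaks of the same library, whose median width was 894 bp in WT replicate 1 and 778 bp in KO replicate 1. The narrowest width, 501 bp, had a percentile of 9.69 in WT replicate 1 and 12.0 in KO replicate 1. A higher percentile in KO is therefore not always a wider peak. Over all protein-coding windows with a peak in all 4 libraries 35.5% were higher and 17.2% lower, so the shares at bidirectional windows were near the background. The split depended on which peaks were kept and on how they were ranked. With lists of equal length, each cut to its first 9553 peaks, 130 windows were higher and 148 lower by width. These are windows with a peak in all of the cut lists. With the place in the list as rank 260 were higher and 69 lower. The shares over all protein-coding windows were not computed with these settings. With 1 library left out only 1 replicate number is compared, and the counts were 293 to 358 higher and 237 to 255 lower. Of 49 windows with the longer YY1 letters 13 were higher and 8 lower. The median KO minus WT difference at bidirectional windows was 0.745 percentile points within number 1 (quartiles -7.31 and 9.22) and 1.21 within number 2 (quartiles -2.53 and 6.17). The other 5′ ends had medians of 1.32 and 1.76.

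The 5 pairs with the largest positive and the 5 with the largest negative KO minus WT difference were named by a rule that used these differences. Only pairs with a peak in all 4 libraries and a difference of the same sign within both replicate numbers were eligible. The values of the named pairs are descriptions. Cdr2/Mfsd13b had the largest positive difference of these, from percentiles of 9.69 and 42.8 in WT replicates 1 and 2 to 57.1 and 65.9 in KO. The 9.69 is the percentile of the narrowest width, 501 bp, which 19.4% of the peaks in WT replicate 1 had. Exd1/Chp1 went from 21.1 and 72.8 to 80.4 and 81.6. Nop14/Grk4, with a ribosome assembly factor, went from 24.8 and 84.4 to 82.2 and 86.3, so its difference was almost wholly in replicate 1. Cenpp/Nol8 and Qpctl/Snrpd2 differed by 28.8 and 26.5 percentile points on average.

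Slc30a7/Extl2, with a zinc transporter, had the largest negative difference of these, from 80.5 and 87.2 in WT to 12.0 and 69.5 in KO. The 12.0 is the percentile of the narrowest width, 501 bp, which 23.9% of the peaks in KO replicate 1 had. Atm/Npat joins the kinase of the DNA damage response to an activator of histone genes. It had WT peaks of 1406 and 2066 bp against KO peaks of 627 and 1011 bp. The percentiles were 79.2 and 89.5 in WT and 26.6 and 57.5 in KO. Psmb1/Tbp had 99.3 and 99.1 in WT and 46.3 and 98.7 in KO, so this difference rested on KO replicate 1. Cbln3/Khnyn and Ndufa5/Asb15 differed by -30.3 and -23.1 points on average. No test was made of a single window.

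**Figure D5:**
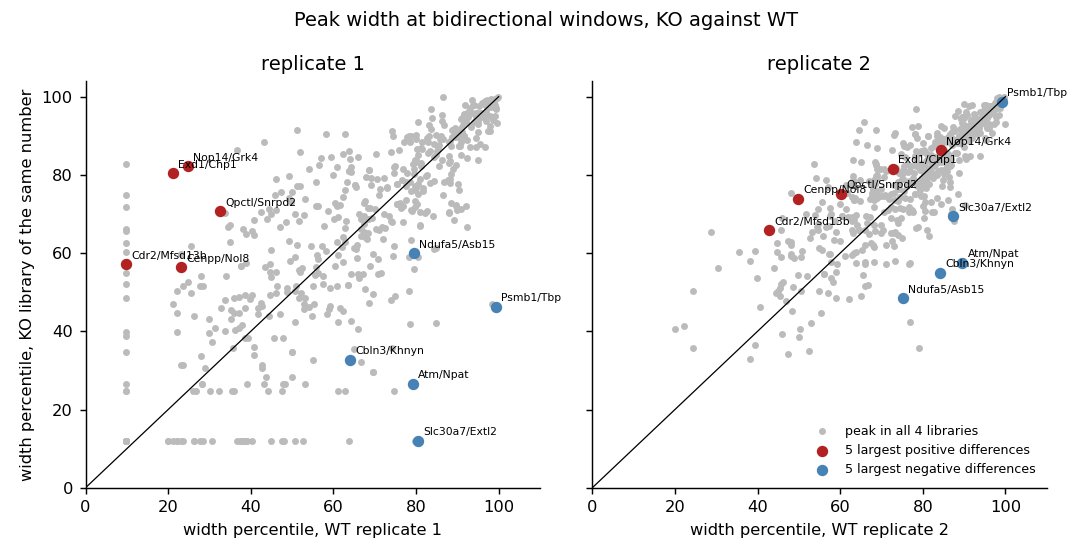
Width percentile of the widest YY1 peak in the KO library (y axis) against the WT library of the same replicate number (x axis) at bidirectional windows with a peak in all 4 libraries; each grey point is 1 pair and the line marks equality. The 5 largest positive (red) and negative (blue) differences among pairs with the same sign within both replicate numbers are named. Replicate 1 scatters more widely than replicate 2, with quartiles of the difference at -7.31 and 9.22 against -2.53 and 6.17.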

How the data were processed

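The authors made the 4 YY1 peak lists from ChIP-seq of crosslinked, MNase-digested chromatin. Per the submitters' processing notes, Trim Galore, Bowtie2 2.3.5.1, SAMtools 1.10, Picard 2.0.1, deepTools 3.5.0, HOMER 4.9.1 and DiffBind 3.0.13 were used with genome mm10. Per the methods of the study, alignments with a mapping quality under 30 and duplicates were removed, and HOMER findPeaks joined regions of at least 500 bp at a local fold of 4. Per the file headers each list comes from 1 library, with no pooling. The deposited score column holds the same value for every peak and was not used to rank peaks. Positions were deposited from 0 and are printed from 1.

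Gene and pair positions came from GENCODE M21 and bases from GRCm38.p6, the assembly of mm10. A window counted as occupied when a peak shared at least 1 bp with it, and its widest peak was ranked among all chr1 to chr19 peaks of that library. Two-sided exact permutation tests were run over libraries, never over windows: sign flips over 4 libraries (smallest p 0.13) and exchanges of genotype (smallest p 0.33). Windows called KO-specific, WT-specific, higher or lower were counted without a test. Groups came from the labels. The members and gene lists were chosen with earlier results of these data known, and the place of peaks relative to the letters was examined after the other results. Named pairs were the listed well-known pairs, the 5 highest in mean width percentile, all genotype-specific pairs, among pairs with a peak in all 4 libraries the 5 largest positive and negative KO minus WT differences of the same sign within both replicate numbers, the 5 shortest gaps without a peak, and group members without a peak; other names in the group accounts are examples. Alternatives changed the window, the overlap, the gap limit, the lists compared, the rank and the libraries kept. Scripts in Python 3.11.15 with numpy 2.4.6, pandas 2.3.3, scipy 1.17.1 and pysam 0.24.0 were tested on simulated data. Sites on chromosome 18 were counted but no sequence was printed from it. Some items of the marker and pair lists are not reported here.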

Additional observations from a re-analysis of the deposited data

How the results depend on the processing

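The higher share at bidirectional windows kept its direction under all 13 alternatives (21.8 to 53.5 points), as did wider peaks (14 alternatives, 3.53 to 8.83 percentile points), the difference from the divergent noncoding class (12 alternatives, 15.6 to 25.5 points), the difference by gap length (10 alternatives, 2.21 to 6.85 points) and the difference by YY1 letters (13 alternatives, 4.94 to 28.2 points), the last lowest with the peak midpoint required inside the window and highest with the first 50% of every list. These directions are of the mean over libraries; not every library kept the sign of the difference by YY1 letters with the peak midpoint inside the window or of the difference by gap length with that setting and with the first 50% of every list. No p here can pass 0.05, so these tests say nothing of stability. The KO minus WT share was reversed without WT replicate 1 (-3.75) and without KO replicate 2 (-2.86), between -3.75 and 6.88 with 1 library left out, and the difference relative to other 5′ ends was reversed without WT replicate 1 (-0.588; -0.588 to 3.19 with 1 library left out).

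KO-specific windows numbered 6 with the peak midpoint inside the window, 1 with gaps of at most 500 bp, 6 with lists of equal length, 1 with the first 50% of every list, and 2 to 50 with 1 library left out. WT-specific windows numbered 4 with lists of equal length and 0 to 33 with 1 library left out, 33 of them without KO replicate 2. Higher-ranked windows numbered 108 with the first 50% of every list and 293 to 358 with 1 library left out, when only 1 replicate number is compared, and lower-ranked windows 69 with the place in the list as rank and 237 to 255. With lists of equal length the split of higher against lower turned, to 130 and 148. Apart from the fewer libraries or peaks, the cause was not tested.

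With the replicate number as a block, the KO minus WT share was 1.57 points (exact sign-flip permutation p = 0.500, the smallest 2 pairs allow) and the difference relative to other 5′ ends 1.30 points (p = 1.00). The labels do not say that the numbers mark a shared litter or day. The comparison with the divergent noncoding class could not be repeated among 5′ ends without a neighbour, which by definition have none. Depth ran with the replicate number, so its part in the 120 windows with a peak in only some libraries cannot be told apart.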
